A study of Mus musculus with 9 samples.

Results

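The genes described here are 10 of the 22173 with a row in the count files: Phlda1, Tes, Ptpru, Tmc3, Gja1 and Cass4, whose mean level was higher in stiffer gels, and Gpr162, N4bp3, Dnah6 and Rab15, whose mean level was lower. They were picked from the measured values of these same libraries for large, ordered changes between the 3 stiffnesses, from genes outside the programs usually followed in such cells. Their stiffness values are therefore a description and carry no test. Neutrophils from the bone marrow of wild-type mice were embedded as primary cells in gelatin methacryloyl (GelMA), a gelatin that is crosslinked into a gel of chosen stiffness, and stayed there for 2 days in RPMI medium with serum. The gel had an elastic modulus of 1.5 kPa (low, the study's control), 2.6 kPa (middle) or 5.7 kPa (high), and the series title names neutrophil polarization, the taking on of different functional states, as the subject. Each group had 3 libraries of poly(A) RNA, numbered 1 to 3, and the culture, genotype and medium were the same in all 9. Total counts were 13172879 to 19486546 per library, and 12094 genes had enough counts to be tested, all 10 of these genes among them.

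The genes belong to no single pathway, but several act where a cell holds on to its surroundings or to its neighbours. Testin (Tes) and Cass4 are proteins of focal adhesions, the sites where integrins tie the cytoskeleton to the matrix and from which kinases such as FAK and Src signal. Gja1 encodes connexin 43, which forms channels between touching cells and hemichannels that open to the outside, and Ptpru is a receptor-type tyrosine phosphatase whose outer part is built like a cell adhesion molecule. Phlda1 is a small protein with a pleckstrin homology-like domain that growth factor and ERK signalling induce, and Tmc3 is a relative of the channel proteins of hair cells in the inner ear. Of the genes that were lower, Gpr162 is an orphan G protein-coupled receptor, N4bp3 binds the ubiquitin ligase NEDD4, Dnah6 is a heavy chain of the dynein that moves cilia, and Rab15 is a small GTPase of endocytic recycling.

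RefSeq start sites on the mouse build GRCm38.p6 gave 250-base windows upstream of the start for 8 of the 10 genes, 11 windows in all because Rab15 has 4. The windows of Gja1, Ptpru and Dnah6 are shown, the first windows that hold an AP-1 site or a cyclic AMP response element. These are 2 genes that were higher and 1 that was lower. Window 3 of Rab15, a gene that was lower, also held an AP-1 match and is not shown. The windows run 5′ to 3′ on the gene's strand, end at the base before the annotated start, and have the match in capitals: the AP-1 site TGANTCA in Gja1 (chr10:56377050-56377299, plus strand), and the cyclic AMP response element TGACGTCA in Ptpru (chr4:131838279-131838528, minus strand) and Dnah6 (chr6:73221632-73221881, minus strand).
Gja1: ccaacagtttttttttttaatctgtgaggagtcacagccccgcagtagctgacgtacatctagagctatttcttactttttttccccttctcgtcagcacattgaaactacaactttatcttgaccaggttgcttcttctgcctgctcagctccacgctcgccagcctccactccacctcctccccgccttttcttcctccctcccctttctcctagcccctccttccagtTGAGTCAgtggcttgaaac
Ptpru: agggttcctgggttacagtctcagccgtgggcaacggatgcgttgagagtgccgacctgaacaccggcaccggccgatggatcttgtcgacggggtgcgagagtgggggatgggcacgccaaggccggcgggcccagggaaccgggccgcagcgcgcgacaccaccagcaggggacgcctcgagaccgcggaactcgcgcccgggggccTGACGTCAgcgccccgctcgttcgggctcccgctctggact
Dnah6: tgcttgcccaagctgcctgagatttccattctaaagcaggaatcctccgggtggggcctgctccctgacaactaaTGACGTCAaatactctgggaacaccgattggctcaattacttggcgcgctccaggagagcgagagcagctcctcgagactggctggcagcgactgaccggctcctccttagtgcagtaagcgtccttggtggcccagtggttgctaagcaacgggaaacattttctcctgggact

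The AP-1 match of Gja1 lies at -19 to -13 from the start, and it is 1 of 8 first windows with such a match, against 6.75% of all 32851 windows of the same length searched on both strands. In a check against transcript sequences, 0 transcripts of Gja1 held the bases after its start, with 1 for Ptpru and 2 for Dnah6. The distance in Gja1 therefore rests on the RefSeq annotation alone. The cyclic AMP element lies at -41 to -34 in Ptpru and at -175 to -168 in Dnah6, which is 2 of 8 first windows against 1.55% of all windows. Ptpru was higher and Dnah6 lower in stiffer gels, so the genes with this match did not share a direction. The TEAD motif GGAATG was found in the first window of Rab15 alone (12.6% of all windows), and the SP1 motif GGGCGG in those of Tes and Rab15 (32.7%). The PU.1 motif GAGGAAGT (2.44% of all windows) and the serum response factor motif (1.47%) had no match in these windows, and the NF-kB motif (7.25%) matched, as an overlapping pair, in window 3 of Rab15 only. The same window also held an AP-1 match. The share over all windows is not limited to first windows. Counted in that way, AP-1 and the cyclic AMP element each matched in 2 of the 11 windows of these genes. A match says that these letters are in the window, not that a factor binds there. Guanine and cytosine made up 46.4% to 75.2% of the bases of these windows, against a median of 52.4% over all windows.

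The libraries numbered 1 stood apart from those numbered 2 and 3 in every group. With stiffness in the model, 65.4% of all tested genes differed between replicate 1 and the other 2 numbers (edgeR quasi-likelihood test, adjusted p under 0.05). The labels name the cells as neutrophils, and all 12 neutrophil markers on the list used here were detected in the data, with a summed level of 3189 to 3740 CPM (read counts scaled to library size) in replicate 1 and 13716 to 23352 CPM in replicates 2 and 3. Macrophage markers, 10 of 10 detected, summed to 7004 to 8111 CPM in replicate 1 and 4487 to 7073 CPM in the others, but 6 of the 10 were lower in replicate 1 and 2 higher, and Gpnmb alone averaged 3123 CPM. Neutrophil markers also differed by stiffness. Their sum was 3189 to 23352 CPM in low, 3740 to 19891 CPM in middle and 3720 to 13744 CPM in high gels. The lowest value of each gel is its replicate 1 library, so in replicate 1 the sum was not lower in stiffer gels. With the replicate number in the fit 4 of 12 were lower and 0 higher in high than in low gels. Macrophage markers summed to 7035 to 8111 CPM in low, 5240 to 7004 CPM in middle and 4487 to 7405 CPM in high gels. In the same fit 3 of the 10 were higher and 4 lower in high gels. The part of either cell type in the stiffness changes below was not tested. Replicate number is balanced over the 3 gels, so it does not coincide with stiffness, but it widens the spread within each group. Changes of relatives and neighbours are therefore given from a fit with the replicate number as a block, which compares gels within a number. In that fit 6.72% of all genes were higher and 8.73% lower in high than in low gels, and without the block none of the relatives or neighbours named below passed in edgeR. Levels are given for every library, in the order replicate 1, 2, 3, as CPM after TMM scaling. In bulk RNA, more cells that express a gene and more RNA of it per cell cannot be told apart.

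**Figure D1:**
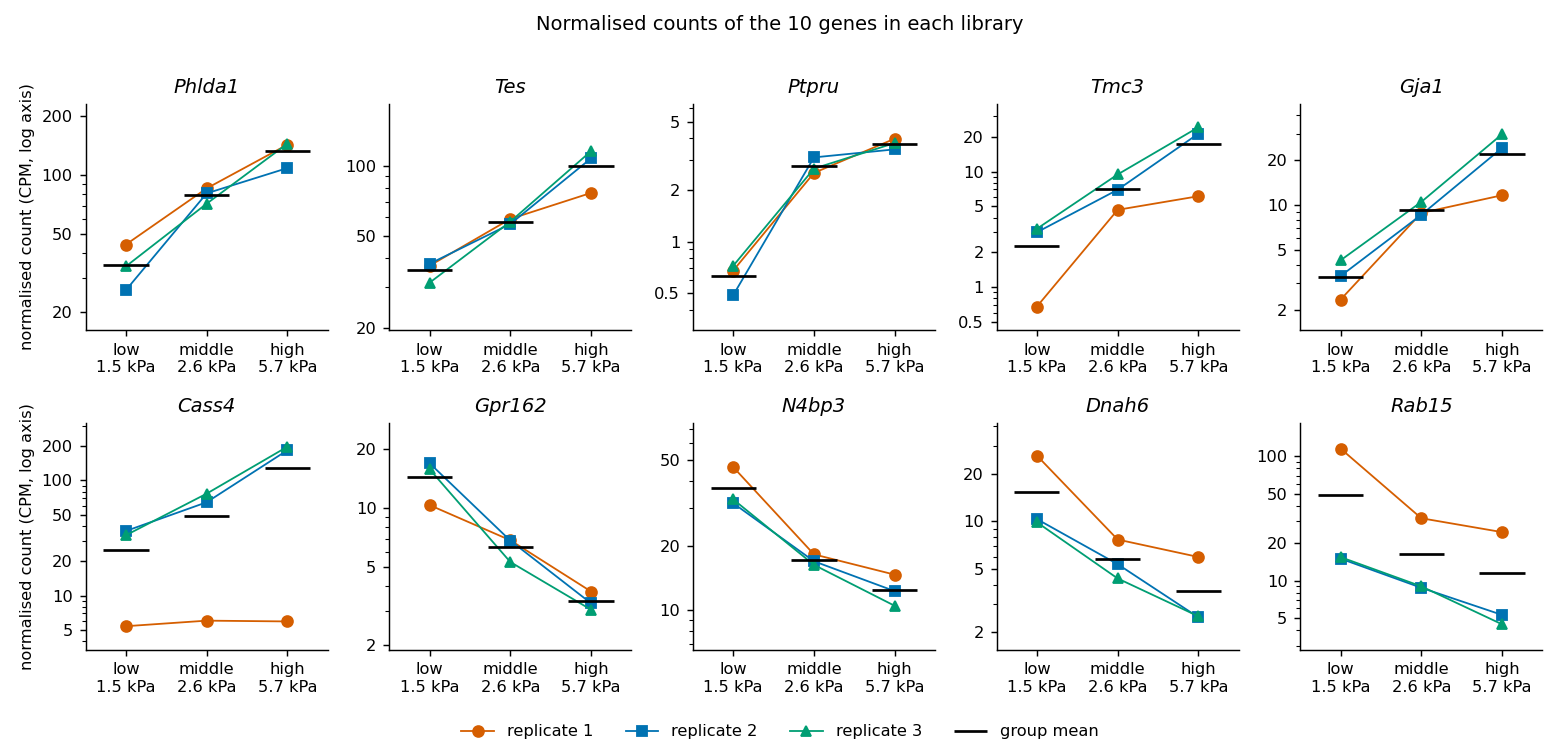
Normalised counts (CPM, log axis, a separate scale for each gene) of the 10 genes by gel stiffness; each point is 1 library, lines join libraries of the same replicate number and black bars are group means (n = 3). Each line rises or falls through all 3 gels except Cass4 in replicate 1, which stays between 5.43 and 6.07 CPM, and replicate 1 of Rab15 lies above the others in every gel.

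Among the genes of cell contacts, Gja1 was higher at each step of stiffness in every replicate. Its level was 2.34, 3.36 and 4.28 CPM in the low gels, 8.88, 8.63 and 10.5 CPM in the middle gels and 11.7, 24.1 and 29.8 CPM in the high gels. The 3 groups did not overlap, and the replicate 1 library was the lowest of the high gels. The mean went from 3.33 ± 0.972 CPM (SD, n = 3) to 21.9 ± 9.30 CPM (SD, n = 3), a fitted log2 difference of 2.71 ± 0.38 (SE), or 6.55-fold. Connexin 43 stood alone in its family: of 22 other connexins and pannexins on the list, 1 had enough counts to be tested, the channel gene Panx1, at 13.0 CPM in low and 16.4 CPM in high gels (log2 difference 0.28 ± 0.19 with the replicate number as a block, adjusted p = 0.353 in edgeR), and 6 had 0 counts in every library. Connexin 43 is also abundant in bone marrow stromal cells. The 9 stromal markers, all detected, summed to 36.6 to 48.4 CPM in low, 27.7 to 38.9 CPM in middle and 25.8 to 31.3 CPM in high gels, and of 6 tested with the block 0 were higher and 2 lower in high gels. Their part in the level of Gja1 was not tested.

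Ptpru had the lowest counts of the 6 genes that were higher in stiffer gels. It had 9, 9 and 12 reads in the low gels, 34, 61 and 39 in the middle gels and 56, 61 and 58 in the high gels. As normalised counts these were 0.679, 0.488 and 0.723 CPM, then 2.52, 3.10 and 2.67 CPM, then 3.98, 3.45 and 3.76 CPM. The low gels were far below the rest, while middle and high gels were close, the lowest high library lying at 3.45 and the highest middle library at 3.10 CPM. The fitted change from low to high was 2.56 ± 0.27 (log2, SE), 5.88-fold, and replicate 1 did not differ from the others (log2 difference 0.02 ± 0.24, edgeR adjusted p = 0.956). Ptpru belongs to the group of receptor phosphatases with a MAM domain, together with Ptprk, Ptprm and Ptprt. Of these, Ptprm fell, from 9.49 to 3.24 CPM on average (log2 change -1.53 ± 0.23 with the block, edgeR adjusted p = 0.00171), the opposite direction to Ptpru. Ptprk and Ptprt had 26 and 1 reads over all libraries and were not tested. Elsewhere in the family, Ptprj, which acts on Src-type kinases and is present throughout myeloid cells, rose by 0.70 ± 0.11, and Ptpre rose by 0.42 ± 0.08, both with the block, so that of 8 receptor phosphatases tested 2 were higher and 1 lower.

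Tes encodes testin, a LIM domain protein that binds zyxin, Mena and other actin regulators. It was measured at 37.2, 37.9 and 31.4 CPM in low gels, 59.1, 56.2 and 57.5 CPM in middle gels and 76.5, 107.8 and 115.8 CPM in high gels. The middle libraries were within 3 CPM of each other and no 2 groups overlapped. The fitted change was 1.49 ± 0.17 (log2, SE), 2.82-fold, the smallest of the 10 genes. Tes was among the most abundant of them, with a mean of 40.0 FPKM (counts scaled by exonic length and library total) in high gels.

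Cass4 is a scaffold of the Cas family, docking proteins that are phosphorylated when integrins are engaged. Here the pattern by stiffness held in 2 of the 3 replicate numbers. In replicates 2 and 3 the level was 36.4 and 33.5 CPM in low, 64.7 and 76.9 CPM in middle and 183.2 and 196.6 CPM in high gels. In replicate 1 it was 5.43, 6.07 and 5.97 CPM, from 72, 82 and 84 reads, with no order by stiffness. The label of a gene graded by stiffness therefore does not describe Cass4 in replicate 1. Group means of 25.1 ± 17.1, 49.2 ± 37.9 and 128.6 ± 106.4 CPM (SD, n = 3) carry this split, and low and high groups overlapped. The fitted change was 2.35 ± 1.29 without the block and 2.02 ± 0.43 with it.

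The rest of the focal adhesion list split in both directions. Of 26 tested among 30 listed proteins, 2 rose and 2 fell with the replicate block (edgeR), and the median log2 change was -0.06, against -0.00 over all genes tested. Vasp, an actin filament elongator at adhesions, rose by 0.82 ± 0.11 from a mean of 424.8 to 768.2 CPM, and vinculin (Vcl), which reinforces the link from talin to actin, rose by 0.44 ± 0.09. Tensin 3 (Tns3) changed by -0.51 ± 0.11 and the Vasp relative Evl by -0.40 ± 0.12. The closest relatives of Cass4 did not pass: Nedd9 was at 134.3 CPM in low and 115.6 CPM in high gels (log2 -0.22 ± 0.07, adjusted p = 0.0648 in edgeR with the block), and Bcar1 at 1.57 and 2.03 CPM (log2 0.36 ± 0.37, adjusted p = 0.543). Zyxin (Zyx), a partner of testin, was at 291.6 and 282.1 CPM (log2 0.03 ± 0.10, adjusted p = 0.854). Nedd9, Bcar1 and Zyx are named here after their values were seen.

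Phlda1, the gene induced by ERK signalling, was the most abundant of the 10 in high gels by length-scaled level, at 66.3 FPKM. Its normalised counts were 44.3, 26.0 and 34.3 CPM in low, 85.7, 80.9 and 71.6 CPM in middle and 143.2, 108.8 and 144.9 CPM in high gels. Every middle library was above every low library and every high library above every middle one. The change was 1.92 ± 0.22 (log2, SE), 3.80-fold. Other genes that ERK signalling drives, listed together with the family members Phlda2 and Phlda3, changed in both directions. Of 8 tested among 11 listed, 1 rose and 2 fell with the block: cyclin D1 (Ccnd1) changed by -1.36 ± 0.22, from 12.2 to 4.61 CPM, and the ERK phosphatase gene Dusp6 by -0.49 ± 0.08. Epha4, an ephrin receptor, was the one that rose (1.63 ± 0.48), at a mean of 0.332 CPM in low and 1.05 CPM in high gels. The family member Phlda3 was at 2.00 CPM in low and 1.64 CPM in high gels (log2 -0.32 ± 0.38, adjusted p = 0.621 in edgeR) and Phlda2 had 6 reads in all and was not tested.

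Tmc3 had the largest fitted change of the 10. Its level was 0.679, 2.98 and 3.20 CPM in low, 4.66, 6.95 and 9.43 CPM in middle and 6.11, 21.3 and 24.1 CPM in high gels, and the first of these rests on 9 reads. Within each replicate number the order was kept, but the replicate 1 library of the high gels lay below middle replicates 2 and 3, so middle and high overlapped. The log2 change was 2.89 ± 0.67 (SE), 7.42-fold, and 2.87 ± 0.25 with the block. Tmc1 and Tmc2, the family members known from hair cell mechanotransduction, had 2 and 1 reads over all 9 libraries. Of the 5 relatives that were tested 0 rose, and Tmc5, at 1.81 CPM in low and 0.333 CPM in high gels, fell by 2.25 on the log2 scale with the block (SE 0.52, edgeR adjusted p = 0.0143). Tmc6 and Tmc8, the pair expressed in lymphoid and myeloid cells, did not pass (log2 0.13 ± 0.12 and -0.08 ± 0.29, adjusted p = 0.501 and 0.883 in edgeR with the block).

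Of the genes that were lower in stiffer gels, Gpr162 was the most even across replicates in the high gels. It was measured at 10.4, 17.0 and 15.9 CPM in low, 6.88, 6.85 and 5.33 CPM in middle and 3.77, 3.28 and 3.04 CPM in high gels, with no overlap between any 2 groups. The log2 change was -2.10 ± 0.25 (SE), 4.29-fold lower. Other receptors, grouped by having no assigned ligand or one found late, split in both directions. Of 17 tested orphan receptors, 3 rose and 2 fell with the block, and the risers were receptors known from myeloid cells. Gpr84, which responds to medium-chain fatty acids, rose from 49.97 to 154.5 CPM (1.55 ± 0.15), Gpr18 from 4.71 to 14.7 CPM (1.55 ± 0.20) and Gpr35 from 35.3 to 103.1 CPM (1.38 ± 0.20). Gpr27 changed by -0.81 ± 0.15 and Gpr137b, named after its values were seen, by -0.44 ± 0.09.

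N4bp3 was also lower at each step, without overlap between any 2 groups. It was at 46.4, 31.5 and 32.8 CPM in low, 18.2, 16.9 and 16.3 CPM in middle and 14.6, 12.3 and 10.5 CPM in high gels. Most of the difference lay between low and middle gels, and the total was -1.56 ± 0.20 (log2, SE), 2.96-fold lower. Its binding partner Nedd4 fell, from 45.4 to 24.7 CPM (-0.91 ± 0.12 with the block), as did Wwp1, a ligase of the same family (-0.91 ± 0.12), and N4bp2, which shares the name only as another NEDD4-binding protein (-0.38 ± 0.08). Smurf1, a further ligase of the family, rose by 0.43 ± 0.10. Over the 15 tested genes of this list the median change was -0.04, so 3 fell and 1 rose among otherwise small differences.

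Dnah6 had 26.0, 10.4 and 9.89 CPM in low, 7.69, 5.38 and 4.37 CPM in middle and 5.97, 2.49 and 2.52 CPM in high gels. Low and high did not overlap, while middle and high did, through the replicate 1 library of the high gels. The log2 change was -2.07 ± 0.52 (SE), 4.21-fold lower, and -2.05 ± 0.19 with the block. By length-scaled level Dnah6 was low, at 1.13 FPKM in low and 0.263 FPKM in high gels, with exons that span 13782 bases. Of 14 tested dynein chains 1 rose, the outer arm heavy chain Dnah17 (0.60 ± 0.17, from 4.75 to 7.25 CPM), and 0 fell.

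Rab15 showed 2 levels. In replicate 1 it was at 115.4, 31.8 and 24.6 CPM in low, middle and high gels. In replicates 2 and 3 it was at 15.1 and 15.5 CPM, then 8.78 and 9.02 CPM, then 5.32 and 4.47 CPM. It was ordered by stiffness in every replicate, but replicate 1 lay above both other libraries in every gel, and all pairs of groups overlapped. The fitted change was -2.09 ± 1.05 without the block and -1.89 ± 0.21 with it. Leaving out low replicate 1 brought the unblocked value to -0.41 and turned middle against low to 0.10, leaving out middle replicate 1 turned high against middle to 0.37, and leaving out high replicate 1 gave -3.31 for high against low. Once the fit held the block, leaving out low replicate 1 gave -1.51. Dnah6 moved in the same way but less, to -1.46 without low replicate 1 and to -2.61 without high replicate 1. Among 26 tested Rab GTPases and partners, Rab31 (0.32 ± 0.09) and Rab11b (0.25 ± 0.08), both of endosomal transport, rose with the block and Rab27b, a GTPase of granule release, changed by -1.01 ± 0.20. The median of the list was 0.01.

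Across all family lists, 184 of 187 listed relatives were in the files and 120 were tested. Without the block 0 passed in high against low in edgeR, with DESeq2 3 did, and with the block 12 rose and 12 fell. The median of the 120 was -0.02. Over all genes the blocked shares were 6.72% higher and 8.73% lower, and single lists held 0 to 3 genes in either direction. The lists are described by counts only, without a set test.

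Set against all genes, these 10 are large changes but not the largest. By size of the unblocked change they ranked 7 (Tmc3), 10 (Gja1), 18 (Ptpru), 33 (Cass4), 53 (Gpr162), 57 (Rab15), 59 (Dnah6), 76 (Phlda1), 165 (N4bp3) and 194 (Tes) of 12094. The arginine-degrading enzyme Arg1 (3.45), the T cell and myeloid surface gene Cd4 (-3.09), the granulocyte growth factor Csf3 (2.92) and the syndecan Sdc1 (2.82) are examples of genes with larger changes than Gja1. A different order appears by p, which weighs the change against its spread (edgeR, high against low, no block). By p, Ptpru ranked 2, Phlda1 5, Tes 6, Gpr162 7, N4bp3 11 and Cass4 1605. This contrast chose the genes, so both rankings are a description. The selection named no threshold, so no gene lies just inside or just outside one. Of 513 genes that averaged at least 1 CPM, had an order kept in all 3 replicates and no overlap of low and high, 8 were members, and Cass4 and Rab15 were not among them.

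Low and high groups did not overlap in 8 of the 10, against 12.7% of all genes. Low and middle did not overlap in 8 (7.76% of all genes), middle and high in 6 (5.08%), and the order was kept in all 3 replicates in 9 (10.7%). For high against low, 5 of the 10 passed an adjusted p of 0.05 without the block (Phlda1, Tes, Ptpru, Gpr162 and N4bp3), where 0.091% of all genes did. In the blocked fit all 10 did, where 15.5% of all genes did. For middle against low, 0 of the 10 and 0% of all genes passed in edgeR without the block, with 8 members and 318 genes at an unadjusted p under 0.05 and 4 members passing in DESeq2. With the block 9 of the 10 passed, all but Cass4, and 1.84% of all genes. For high against middle, 0 of the 10 and 0% of genes passed without the block (4 members and 179 genes at an unadjusted p under 0.05, 0 members in DESeq2), and with it 0 of the 10 and 0.0165% of genes. Since these contrasts chose the genes, nothing is read from the counts. The 5 without the block became 6 without high replicate 1 (Gja1 added), 2 without low replicate 1 (Phlda1 and Gpr162) and 0 without any one of the other 7 libraries. The 10 with the block stayed 10 without low replicate 1 or high replicate 1, and were 9, without Cass4, when any one of the other 7 was left out. The 9 for middle against low with the block became 2, Phlda1 and N4bp3, without low replicate 3. The 0 for high against middle with the block became 6 without low replicate 1 or high replicate 1.

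The fitted share of the change that was present in the middle gels varied between the genes. The 2.6 kPa gel lies at 26.2% of the way from 1.5 to 5.7 kPa, and at 41.2% on a log scale. The share of the log2 change from low to high that was present in the middle gels was 83.2% for Ptpru, 74.6% for Rab15, 70.7% for N4bp3 and 67.7% for Dnah6. It was 46.8% for Tes and 41.2% for Cass4, with Phlda1 at 61.7%, Gpr162 at 56.3%, Tmc3 at 55.3% and Gja1 at 54.7% between. The median was 59.0%, and over the genes called with the block it was 55.95%. For Rab15 the share rests partly on low replicate 1 and was 63.7% with the block. For Cass4 the share is 0.97 ± 1.24 for middle against low over 2.35 ± 1.29 for high against low (log2, SE, no block). The shares carry no test of a difference between genes.

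**Figure D2:**
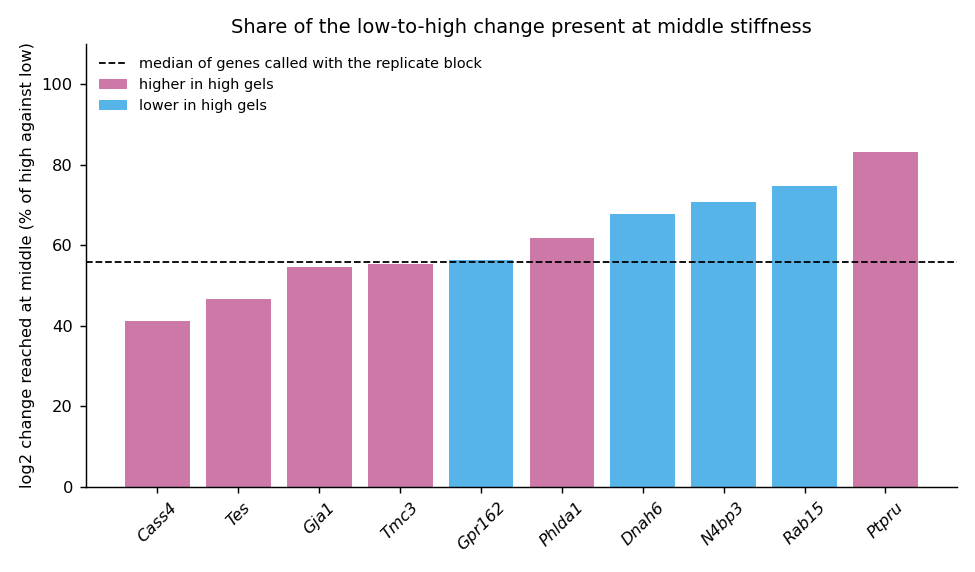
Share of the low-to-high log2 change that was present at 2.6 kPa (fitted middle against low as a percent of high against low, no block) for each gene, coloured by direction. The bars run from 41.2% (Cass4) to 83.2% (Ptpru), and the dashed line is the median of genes called with the block, 55.95%.

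The rule that chose the genes used stiffness and not the replicate number. The split of 1 against 2 and 3 was set with earlier results of these data known, so its adjusted p-values are a description. With stiffness in the model, 7 of the 10 differed between replicate 1 and replicates 2 and 3 (edgeR adjusted p under 0.05), 4 higher and 3 lower, beside the 65.4% of all genes given above. The largest differences were those of Cass4 and Rab15, in opposite directions. Cass4 had a mean of 5.82 CPM in replicate 1 and 98.5 CPM in the others (log2 -3.81 ± 0.45, adjusted p = 0.00103 in edgeR), and Rab15 had 57.3 and 9.69 CPM (2.41 ± 0.17, adjusted p = 1.61e-06 in edgeR). Tmc3 was lower in replicate 1, with means of 3.82 against 11.3 CPM (-1.50 ± 0.23), and Gja1 with 7.62 against 13.5 CPM (-0.68 ± 0.19). Dnah6 was higher, at 13.2 against 5.83 CPM (1.11 ± 0.16), as was N4bp3 (0.35 ± 0.10). Phlda1 passed narrowly (0.30 ± 0.11, adjusted p = 0.0352 in edgeR), but not with DESeq2 (adjusted p = 0.0585) or in 6 of the 9 fits that left out 1 library, with adjusted p up to 0.167 without low replicate 1. The calls of Gja1 and N4bp3 were lost without high replicate 1 (adjusted p = 0.157 in edgeR) and without low replicate 1 (0.0905), respectively. Tes, Ptpru and Gpr162 did not pass, with log2 differences of -0.13 ± 0.12, 0.02 ± 0.24 and -0.12 ± 0.19. Neutrophil markers moved with the number too, 11 of 12 being lower in replicate 1, and their part in these differences was not tested.

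Within a replicate number, high and low gels differed as follows. The log2 ratio of high over low CPM was 1.69, 2.07 and 2.08 for Phlda1, 2.55, 2.82 and 2.38 for Ptpru, and 3.17, 2.83 and 2.92 for Tmc3. It was 1.04, 1.51 and 1.88 for Tes and 2.32, 2.85 and 2.80 for Gja1. Of the genes that were lower, N4bp3 had -1.66, -1.36 and -1.64, Dnah6 -2.12, -2.06 and -1.97, Rab15 -2.23, -1.50 and -1.79, and Gpr162 -1.47, -2.38 and -2.38. For Tmc3, Dnah6 and Rab15 each number gave a ratio of the same sign although the levels differed with the number. For Cass4 the fitted log2 change was 0.14 in replicate 1 and 2.44 in replicates 2 and 3, and for Tes it was 1.04 and 1.69. A fit of this difference, chosen after the data were seen, called Cass4 and Tes among the 10 and 8.36% of all genes (edgeR interaction, adjusted p under 0.05). The genes were chosen on the change from low to high, and replicate 1 holds 1 library per gel, so these differences are a description and nothing is read from the calls. The call of Tes was lost without low replicate 3, middle replicate 2 or middle replicate 3.

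**Figure D3:**
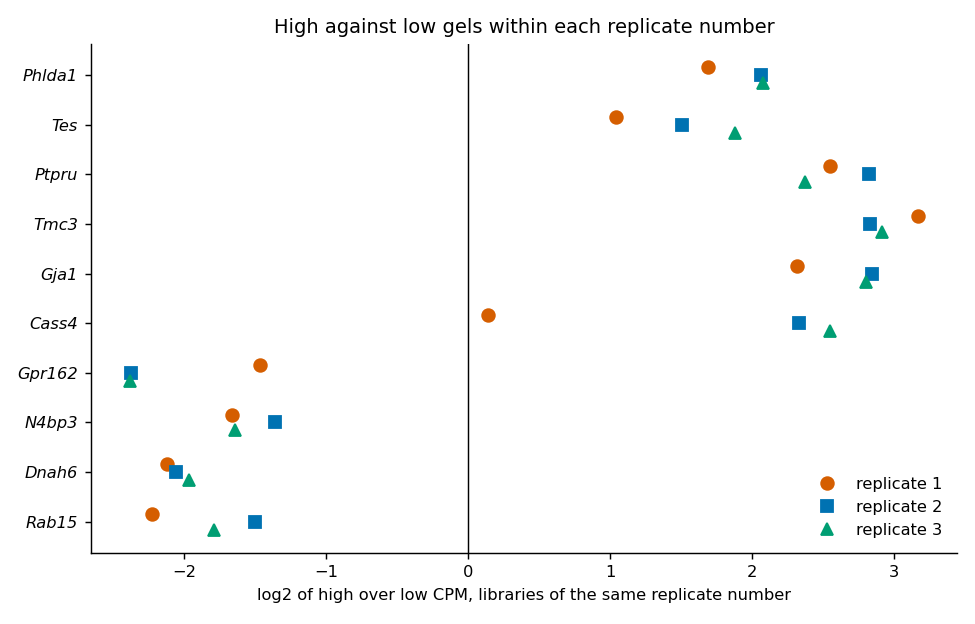
Log2 ratio of high over low normalised counts within each replicate number, for each gene (1 library over 1 library per point). All points of the 6 genes at the top are to the right of 0 and all points of the 4 below to the left, and Cass4 in replicate 1 is at 0.14 while its other points are at 2.33 and 2.55.

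Position in the genome was not used in the choice either, and it was read as gene order in a RefSeq table that matched 21944 of the 22173 symbols. Of the 40 genes that lie nearest, 2 on each side of each member, 36 were tested. Without the block 0 passed for high against low in edgeR, against 0.091% of all genes, with DESeq2 1 did, and with the block 5 did, against 15.5%. Their median change with the block was -0.11, against -0.003 over all genes tested, and 24 of the 36 had a change of the same sign as their member's. No share of equal signs was computed for other genes, so nothing is read from that count. The 5 were Mecr beside Ptpru, which rose (0.75 ± 0.15), and Mdfic near Tes (-0.54 ± 0.09), Max near Rab15 (-0.32 ± 0.09), and Cd4 and Lag3 near Gpr162, which all fell.

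Next to Gpr162, 2 of the 3 tested neighbours passed, both lower in stiffer gels as Gpr162 was. Cd4, the next gene on one side and the coreceptor of helper T cells that is also carried by some myeloid cells, was at 4.07, 22.3 and 26.9 CPM in low, 1.70, 5.99 and 5.54 CPM in middle and 1.35, 3.56 and 1.29 CPM in high gels. It fell by 2.97 on the log2 scale with the block (SE 0.39, edgeR adjusted p = 0.00216), more than Gpr162 itself. Lag3, one gene further on and a relative of Cd4, went from 3.04 to 1.15 CPM (-1.47 ± 0.40, edgeR adjusted p = 0.0299). On the other side the collagen-modifying enzyme gene P3h3 was at 2.18 CPM in low and 1.16 CPM in high gels (-0.91 ± 0.33, adjusted p = 0.0856 in edgeR). Cd4 was also lower in replicate 1 than in the others (log2 difference -1.95, edgeR adjusted p = 0.00183). Markers of dendritic cells, some of which carry Cd4, summed to 36.4 to 66.9 CPM in low and 28.03 to 38.1 CPM in high gels, with all 7 detected. The value of 66.9 CPM was that of low replicate 1, the low library with the least Cd4. In replicates 2 and 3 the sum was 28.03 to 42.5 CPM over all gels. Of 6 dendritic cell markers tested with the block, 0 were higher and 1 was lower in high gels. T and NK cell markers, without Cd4 itself, summed to 1.06 to 4.93 CPM in low and 0.498 to 3.34 CPM in high gels. The part of either cell type in these values was not tested.

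**Figure D4:**
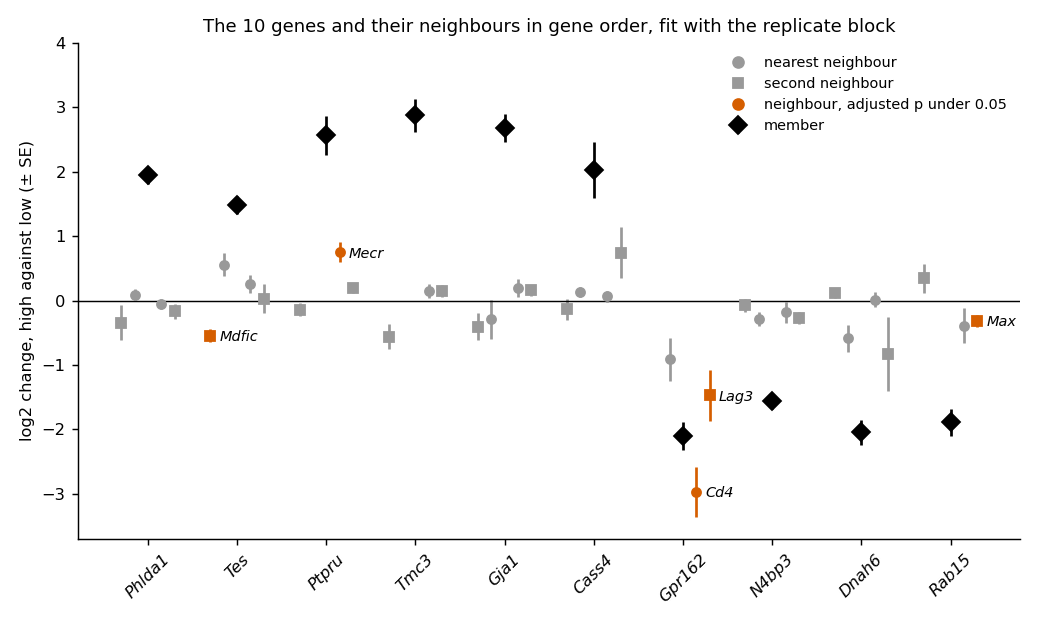
Log2 change from low to high (± SE, fit with the replicate block) of each gene (black diamonds) and of its tested neighbours in gene order (circles nearest, squares the next further). Neighbours with an adjusted p under 0.05 are orange and named, and they are Mecr (0.75), Mdfic (-0.54), Cd4 (-2.97), Lag3 (-1.47) and Max (-0.32).

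The genes whose levels followed each member most closely over the 9 libraries were found among the 11302 genes that averaged 1 CPM or more. Libraries share the stiffness groups and the replicate numbers, so the coefficients are given as a description. For Phlda1 the closest were Il10 (r = 0.978), the anti-inflammatory cytokine, and Sod2 (r = 0.969), the mitochondrial superoxide dismutase that NF-kB signalling induces. Il10 was itself 1.58 ± 0.22 higher in high than in low gels on the log2 scale. For Tes they were the protocadherin Pcdh7 (r = 0.991) and the fatty acid ligase Acsl5 (r = 0.987), and for Ptpru Rassf10 (r = 0.958) and the talin-rod-like gene Tlnrd1 (r = 0.952). Tmc3 was followed by Fcer1g (r = 0.994), the Fc receptor gamma chain, and the transcription factor Etv1 (r = 0.992), and Gja1 by the kinase Prkd3 (r = 0.982) and the endocytic gene Reps1 (r = 0.978).

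The remaining genes paired with others as follows. Cass4 had Dock5 (r = 0.998), an exchange factor for Rac, and Pbxip1 (r = 0.997) closest to it. Their fitted differences between low and high were 0.57 ± 0.46 and 0.49 ± 0.40 (log2, SE), smaller than that of Cass4. Gpr162 was closest to Vipas39 (r = 0.991) and the motor gene Myo5a (r = 0.981), N4bp3 to heparanase (Hpse, r = 0.986) and Dennd4c (r = 0.978), Dnah6 to Ccdc180 (r = 0.980) and Vps39 (r = 0.979), and Rab15 to Dedd2 and Enthd1 (both r = 0.994). Between the 10 genes, Tmc3 and Dnah6 mirrored each other most closely (r = -0.998), followed by Gja1 and N4bp3 (r = -0.974). Phlda1 and Gpr162 had r = -0.963 and Phlda1 and Ptpru r = 0.958. Cass4 and Phlda1 were the least alike (r = 0.190). Coefficients are Pearson's, on log2 CPM, over 9 libraries.

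By length-scaled level in low gels the order of the 10 was Phlda1 (18.1 FPKM), Tes (14.7), Rab15 (14.0), N4bp3 (12.8), Cass4 (5.61), Gpr162 (4.39), Dnah6 (1.13), Gja1 (1.05), Tmc3 (0.310) and Ptpru (0.103). In high gels it was Phlda1 (66.3 FPKM), Tes (40.0), Cass4 (27.5), Gja1 (6.64), N4bp3 (4.21), Rab15 (3.24), Tmc3 (2.23), Gpr162 (0.990), Ptpru (0.60) and Dnah6 (0.263). The mean of Gja1 was below those of Gpr162 and N4bp3 in low gels and above both in high gels. In low gels the neighbours in this order that differed by less than the larger SD of the pair were Phlda1 and Tes, Tes and Rab15, Rab15 and N4bp3, Cass4 and Gpr162, and Dnah6 and Gja1. In high gels they were Tes and Cass4, Cass4 and Gja1, Gja1 and N4bp3, N4bp3 and Rab15, and Rab15 and Tmc3. Ptpru, Dnah6 and Tmc3 stayed below 3 FPKM as group means in every gel.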

How the data were processed

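Poly(A) RNA of 9 libraries, 3 per gel stiffness, was sequenced. The submitters' processing notes name GRCm39 as genome build and list cutadapt 1.9.1, HISAT2 2.0.1, HTSeq 0.6.1 and, with no version, DESeq2. Whether counting used strand is not stated there. Each deposited table holds raw counts per gene, FPKM computed by the authors and, as other values, the deposited exonic size of each gene in bases. Counts were tested with edgeR 4.0.16 in R 4.3.3 (filterByExpr, TMM, robust quasi-likelihood fit over all libraries), two-sided, with Benjamini-Hochberg adjustment over 12094 genes and a threshold of 0.05. The filter kept at least 99.9% of the counts of every library. FPKM served for levels between genes, and correlations used log2 CPM with a prior count of 2. Alternatives were DESeq2 1.42.0, RLE scaling, no low-count filter, a replicate block, leaving out each library, and replicates 2 and 3 alone. Scripts were tested on simulated data.

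Nothing in the labels says that replicates are separate animals, so p-values weigh a difference only against the scatter between these libraries. That scatter may be technical. Once group means were taken out, libraries of equal number deviated together, with r from 0.595 to 0.856 over 9 pairs, which met the condition for pairing by number. Replicate 1 stood far from replicates 2 and 3, and that alone makes these coefficients positive. They therefore cannot show that number 2 pairs with 2 and number 3 with 3. The labels do not say what libraries of the same number share. The block lowered the common biological variation (its coefficient) from 0.337 to 0.115. No 2 libraries of a group matched within sampling noise (lowest chi-square over its degrees of freedom 5.03). Members, gene lists and the split by replicate 1 were chosen with earlier results of these data known. Named genes are the members, up to 4 relatives of each list called with the block (or its 2 most abundant where none was called), neighbours called with the block and the 2 genes most correlated with each member. Outside this rule, Bcar1, Nedd9, Zyx, Phlda2, Phlda3, Ptprk, Ptprt, Tmc1, Tmc2, Tmc6, Tmc8, Gpr137b, the neighbour P3h3 and the larger changes set beside the members were named after their values were seen. Windows before start sites come from RefSeq (GRCm38.p6), another build than that of the files, so neighbours are given by gene order only. Plots used Python 3.11.15 with matplotlib 3.10.9.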

Additional observations from a re-analysis of the deposited data

Results flagged for a closer look

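The fitted change from low to high gels was larger in replicates 2 and 3 than in replicate 1 by 2.30 (log2) for Cass4 and by 0.65 for Tes. An edgeR fit of the difference called these 2 of the 10 genes and 8.36% of all genes. The genes were chosen on the change from low to high, and replicate 1 gives 1 library per gel, so the calls support nothing and the values are a description. The call of Tes was lost when low replicate 3, middle replicate 2 or middle replicate 3 was left out.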

How the results depend on the processing

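The fit with the replicate block, which treats libraries of the same number as paired, is the main alternative. For high against low it raised the members called from 5 to 10, the relatives from 0 to 24 and the neighbours from 0 to 5, and for middle against low the members from 0 to 9. For high against middle it left 0. DESeq2 called 8 members for high against low, 4 for middle against low, 3 relatives and 1 neighbour. Replicates 2 and 3 alone gave 10, 10 and 9 members for high against low, middle against low and high against middle, 40 relatives and 9 neighbours. Leaving out each library gave 0 to 6 members for high against low, 0 for middle against low and high against middle, 0 to 1 relatives and 0 neighbours. With the replicate block, a choice made after seeing the data, these were 9 to 10, 2 to 10, 0 to 6, 13 to 31 (18 without low replicate 2, 21 without middle replicate 1 or 2, 19 without middle replicate 3) and 2 to 7.

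For replicate 1 against the others, 7 members became 2 with no group term and no replicate block, and 5 to 7 when a library was left out. The interaction gave 1 to 2. Group means were in the order of stiffness in 9 to 10 members when a library was left out. For middle against low, Rab15 ranged from -2.44 without middle replicate 1 to 0.10, a reversal, without low replicate 1. For high against middle it ranged from -1.75 without high replicate 1 to 0.37, a reversal, without middle replicate 1. Over the member changes, 674 kept their direction within 1 SE, 14 moved by more and 2 reversed. RLE scaling changed no count of members, relatives or neighbours called, and omitting the filter changed only the members called for high against low, to 4. Genes with few reads, such as Ptpru with 9 to 12 reads per low library, are limited by counting.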
